A study of Mus musculus with 6 samples.

Results

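The 50 genes described here encode enzymes and transporters that handle foreign compounds and organic anions: cytochrome P450 and other oxidising enzymes, conjugating, reducing and ester-cleaving enzymes, membrane transporters, and the receptors Ahr and Nr1i3. They were chosen by name with measured values from the same 6 libraries in view, so their levels and tests are a description and support nothing beyond it. All 50 were among the 39179 gene entries of the count table, and 47 of them were among the 15576 genes with enough reads to be tested. RNA was sequenced from cortical thymic epithelial cells (cTEC) of untreated mice with the Cxcl12::DsRed genotype, a knock-in on a C57BL/6 background in which the fluorescent protein DsRed reports the chemokine gene Cxcl12, at 10 weeks of age. The sort took CD45-EpCAM1+UEA1-Ly51+ cells and split them into a Cxcl12DsRed- and a Cxcl12DsRed+ subset, so the reporter allele and the gate are shared and only the DsRed signal separates the groups. Both subsets were sequenced once in experiment A, once in B and once in C, 3 libraries against 3, and the comparison asks how cTEC without the reporter signal differ from those that carry it. The study describes the 3 as independent biological replicates. A figure legend for the same sequencing instead calls its graphs technical triplicates from a single experiment, representative of 3 separately sorted replicates. The number of mice behind a library is not given in the sources used here, and the p-values measure only the spread between these libraries.

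Cells dispose of foreign, lipid-soluble compounds in stages. P450 enzymes, flavin monooxygenases, reductases and esterases first expose or add a reactive group, transferases then attach glutathione, sulfate or glucuronic acid, and carriers of the OATP and ABC families move the products across membranes. Liver, gut, kidney and airway are best known for this system. The receptors AHR and CAR (encoded by Nr1i3) switch on many of its genes, AHR when it meets a ligand. Thymic epithelium is better known for teaching developing T cells self-tolerance.

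Depth was 34574900 to 51042679 counts in genes per library. Levels are given as CPM, counts per 1000000 after scaling of library sizes, always in the order of experiments A, B and C, and with Cxcl12DsRed- cTEC first where a set of values is given against another. The DsRed transcript stood at 21.5, 17.6 and 27.8 CPM in Cxcl12DsRed- cTEC and at 859.9, 1322 and 2059 CPM in Cxcl12DsRed+ cTEC. Of 14 cTEC markers, 3 were lower in Cxcl12DsRed- cTEC by the test used below (Prss16, Psmb11 and Cxcl12) and 0 were higher, and none was at 0 in a subset. Among all tested genes 0.173% were called lower and 0.449% higher. In 11 of the 14 every Cxcl12DsRed- library lay below every Cxcl12DsRed+ library and in 1 above, where 9.32% and 9.73% of all tested genes did so. The 14 summed to 9753, 9152 and 6519 CPM in Cxcl12DsRed- cTEC and 18670.0, 27003 and 15199 CPM in Cxcl12DsRed+ cTEC. Some libraries stood apart on markers of other cells. The 18 endothelial markers summed to 234, 225 and 269 CPM in Cxcl12DsRed- cTEC and 1284, 1363 and 9669.7 CPM in Cxcl12DsRed+ cTEC, so the Cxcl12DsRed+ library of experiment C was far above the rest. The 14 markers of airway secretory cells summed to 28174, 15043 and 10642 CPM in Cxcl12DsRed- cTEC against 370.5, 96 and 63.5 CPM, and the 18 of tuft cells, a chemosensory epithelial type, to 3832, 1070.3 and 691 against 87.1, 86.7 and 150.2 CPM, both highest in the Cxcl12DsRed- library of experiment A. The sort was meant to keep EpCAM1+ epithelial cells, and in bulk RNA fewer cells of a type and less RNA per cell cannot be told apart.

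Of the 47 tested genes, 7 were higher and 1 was lower in Cxcl12DsRed- cTEC at an adjusted p under 0.05 in the quasi-likelihood test of edgeR, adjusted by Benjamini-Hochberg over all tested genes. The 7 were the P450 genes Cyp2b10 and Cyp2f2, the glutathione transferase genes Gsta4 and Gsto1, the aldehyde dehydrogenase gene Aldh3a1, the carboxylesterase gene Ces1d and the organic anion carrier gene Slco1a5, and the 1 was the aldo-keto reductase gene Akr1c14. Among all tested genes 0.449% were called higher and 0.173% lower, and nothing is read from the gap, since these values helped to choose the genes. The log2 fold change (Cxcl12DsRed- relative to Cxcl12DsRed+) was above 0 for 29 of the 47, with a median of 0.23 against 0.02 over all tested genes and a range of −8.55 to 11.15. In 13 genes every Cxcl12DsRed- library lay above every Cxcl12DsRed+ library, and in 7 every one lay below, where 9.73% and 9.32% of all tested genes did so. The genes that separated upwards were the 7 called genes with Cyp2s1, Gsta3, Adh1, Akr1b8, Slco3a1 and Abcc3, and those that separated downwards were Akr1c14 with Cyp4b1, Ephx2, Nqo1, Fmo1, Abcb1a and Abcg2.

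The calls depended on the test. With the experiment as a block, which pairs the libraries, 4 genes were higher (Aldh3a1, Cyp2f2, Gsto1 and Slco1a5) and 0 were lower, against 0.334% and 0.135% of all tested genes. The likelihood ratio test of edgeR called 11 higher and 7 lower, against 3.53% and 2.12% of all tested genes, adding Cyp2s1, Gsta3, Adh1 and Abcc3 upwards and the 6 other genes that separated downwards. Without the Cxcl12DsRed- library of experiment C the same 7 genes were higher and 0 were lower. Leaving out any other single library left 0 of the 47 genes called and at most 1 gene called in the whole table. Another 3 genes had too few reads to be tested: Ugt1a7c, Sult1d1 and Akr1c18, the last with 53 counts in the Cxcl12DsRed+ library of experiment A and 0 in the other 5 libraries.

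**Figure D1:**
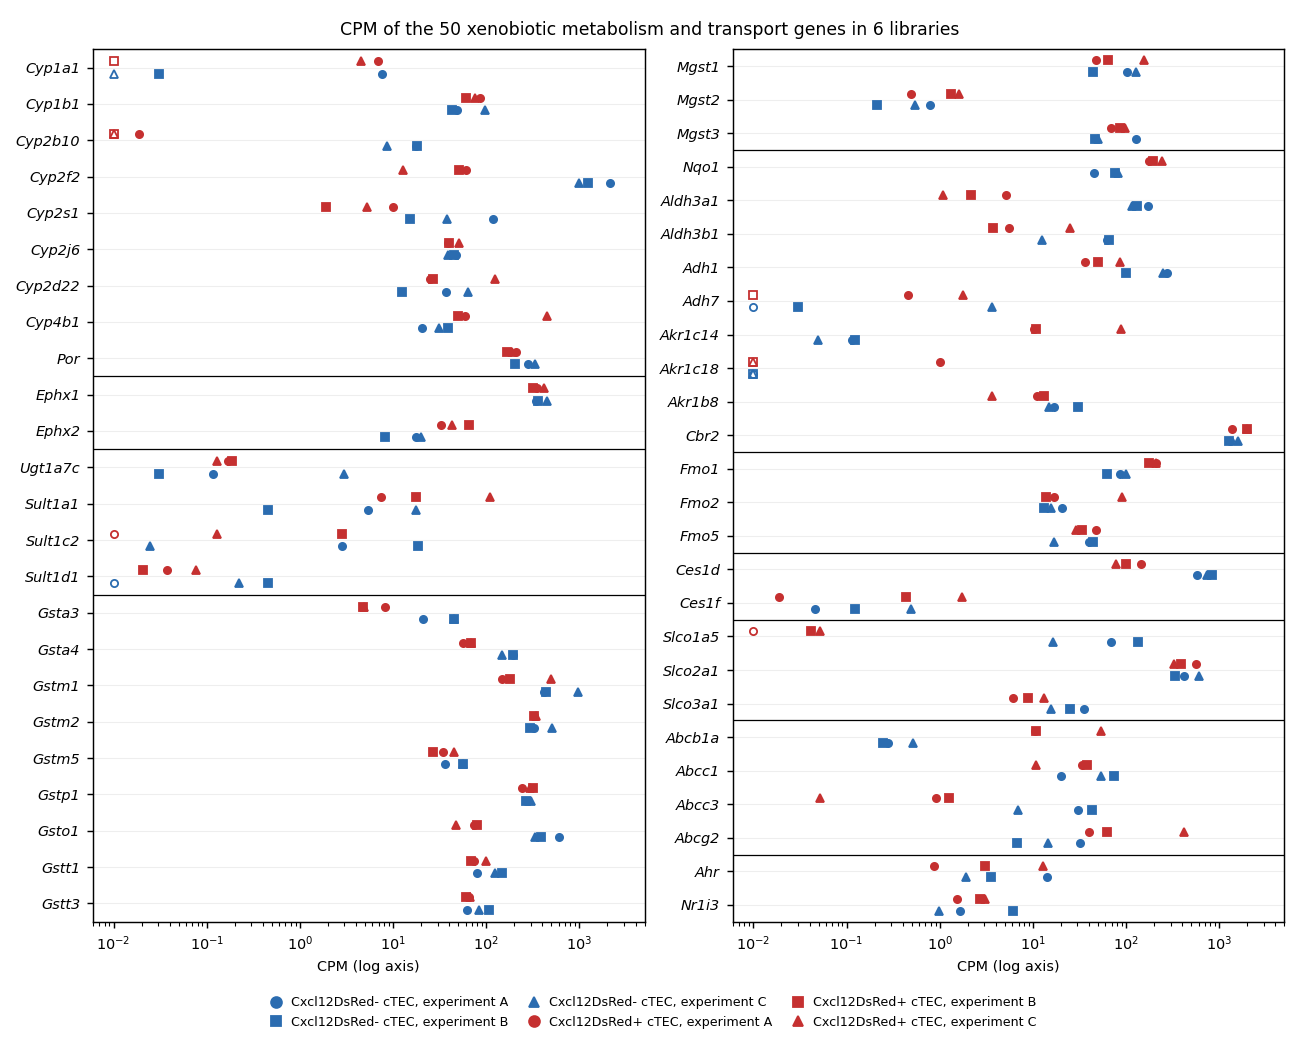
Level of each of the 50 genes in each of the 6 libraries, on a log axis of CPM, grouped by role between the black lines. Blue symbols are Cxcl12DsRed- and red symbols Cxcl12DsRed+ libraries, the symbol shape gives the experiment, and open symbols at the left edge stand for 0 counts. Cyp2f2, Aldh3a1, Slco1a5 and Cyp2b10 show blue far to the right of red, and Akr1c14 and Abcb1a the reverse.

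The starts of the called genes are shown because the receptors that act on this system bind DNA near many of its genes. RefSeq windows for GRCm38.p6, the build called mm10, were found for 39 of the 50 genes, which included 5 of the 8 called ones. Each line below gives the 250 bases before a start site, 5′ to 3′ on the strand of the gene. Capitals mark GCGTG, the core to which AHR binds, on either strand (CACGC on the other), TGACNNNGC, the antioxidant response core, on either strand, and TATAAA, the TATA box, on the strand of the gene.
Cyp2b10: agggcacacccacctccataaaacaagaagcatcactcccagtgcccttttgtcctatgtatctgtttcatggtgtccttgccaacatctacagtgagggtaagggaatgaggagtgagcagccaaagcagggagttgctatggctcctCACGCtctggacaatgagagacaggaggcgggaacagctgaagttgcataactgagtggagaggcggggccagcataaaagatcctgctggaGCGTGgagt
Cyp2f2: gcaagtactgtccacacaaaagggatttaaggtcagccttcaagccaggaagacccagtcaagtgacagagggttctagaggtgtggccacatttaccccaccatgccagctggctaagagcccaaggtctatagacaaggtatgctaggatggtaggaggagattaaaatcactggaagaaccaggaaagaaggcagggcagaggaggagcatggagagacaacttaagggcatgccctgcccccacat
Gsto1: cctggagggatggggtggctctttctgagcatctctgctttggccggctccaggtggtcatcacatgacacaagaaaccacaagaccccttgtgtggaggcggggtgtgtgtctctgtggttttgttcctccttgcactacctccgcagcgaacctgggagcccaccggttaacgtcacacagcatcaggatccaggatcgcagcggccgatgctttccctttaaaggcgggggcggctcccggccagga
Slco1a5: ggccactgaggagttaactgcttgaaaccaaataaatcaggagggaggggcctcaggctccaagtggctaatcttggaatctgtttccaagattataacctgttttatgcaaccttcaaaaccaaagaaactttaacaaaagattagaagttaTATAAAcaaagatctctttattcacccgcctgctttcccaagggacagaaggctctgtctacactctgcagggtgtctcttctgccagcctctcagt
Akr1c14: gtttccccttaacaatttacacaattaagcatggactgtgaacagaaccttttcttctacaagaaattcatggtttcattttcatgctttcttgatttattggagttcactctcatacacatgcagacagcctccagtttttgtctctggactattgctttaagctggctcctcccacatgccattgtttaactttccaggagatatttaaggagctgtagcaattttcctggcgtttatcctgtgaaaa
These windows lie at chr7:25897408-25897657 on the plus strand for Cyp2b10, at chr7:27119705-27119954 on the plus strand for Cyp2f2, and at chr19:47854723-47854972 on the plus strand for Gsto1. The window of Slco1a5 lies at chr6:142322982-142323231 on the minus strand, directly before the GENCODE start of that gene, and RefSeq gives it a second start 44107 bases further in. The window of Akr1c14 lies at chr13:4059341-4059590 on the plus strand, at a start 10580 bases inside the GENCODE gene. Of the called genes without a window, Gsta4 spans chr9:78182774-78209349 on the plus strand, Aldh3a1 chr11:61207537-61218421 on the plus strand and Ces1d chr8:93166068-93197838 on the minus strand in the GENCODE annotation. In these 5 windows the GCGTG core was found only before Cyp2b10, 101 and 9 bases before its start, the TATA box only before Slco1a5, 97 bases before its start, and the antioxidant response core in none. Among all 39 genes with a window, 10 held the GCGTG core (Akr1b8, Cyp1a1, Cyp1b1, Cyp2b10, Gstm1, Gstm5, Gstp1, Mgst3, Por and Sult1d1), and by window the share was 23.9% of 46 against 28.1% of all 32817 RefSeq windows. The antioxidant response core stood in 6.52% of the 46 windows (Gsta3, Gstm5 and Mgst1) and in 10.2% of all windows. The TATA box stood in 17.4% of the 46, from 7 genes, and in 7.6% of all windows. A match says only that the letters are in the window, and no match says only that they are not.

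Among the 8 P450 genes and their reductase, 2 were higher in Cxcl12DsRed- cTEC and 0 were lower. Cyp2f2, the P450 of airway club cells that activates naphthalene, was at 2134, 1250.3 and 995 CPM in Cxcl12DsRed- cTEC and at 60.2, 51.3 and 12.8 CPM in Cxcl12DsRed+ cTEC. The lowest Cxcl12DsRed- library lay more than 10-fold above the highest Cxcl12DsRed+ library, and experiment A held the highest value of each subset. The log2 fold change was 5.14 ± 0.67 (SE), with an adjusted p of 0.0391 in the quasi-likelihood test. Cyp2b10, a P450 best known as a CAR target in liver, was at 17.8, 17.9 and 8.53 CPM in Cxcl12DsRed- cTEC and at 0.0189, 0 and 0 CPM in Cxcl12DsRed+ cTEC. The latter values are 1 read in all, found in experiment A. The ratio of the pooled levels was 2039, with a 95% counting interval of 366 to 80599, which covers counting error only, and the adjusted p was 0.0373 in the quasi-likelihood test and 0.0735 with libraries paired by experiment. Cyp2s1, an epithelial P450 outside the liver that lies 80707 bases from it, also separated upwards, with a log2 fold change of 3.33 ± 0.92 and an adjusted p of 0.183 in the same test. Cyp4b1, a P450 of lung, separated downwards at a log2 fold change of −2.61, which was −0.89 without the Cxcl12DsRed+ library of experiment C. The AHR targets Cyp1a1 and Cyp1b1, the remaining P450 genes Cyp2j6 and Cyp2d22, and Por, the reductase that feeds electrons to all of them, overlapped between subsets, with log2 fold changes from −0.61 for Cyp2d22 to 0.54 for Por. That of Cyp2d22 turned to 0.54 without the Cxcl12DsRed+ library of experiment C. Cyp1a1, at 7.6, 0.0304 and 0 CPM against 6.84, 0 and 4.54 CPM, had a log2 fold change of −0.58 ± 2.55. It was −7.80 without the Cxcl12DsRed- library of experiment A and 0.12 without the Cxcl12DsRed+ library of experiment A, so its direction is not settled. Per kilobase of exon, which allows levels to be set side by side, Cyp2f2 had the highest level of the P450 group in Cxcl12DsRed- cTEC at 721 ± 295 CPM per kb (mean ± SD, n = 3), and in Cxcl12DsRed+ cTEC it had 20.5 ± 12.4, below Cyp4b1 at 81.5 ± 99.6, whose spread is wide, and Por at 46.6 ± 5.4.

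None of the 3 flavin monooxygenases or the 2 epoxide hydrolases passed, and 1 of the 2 carboxylesterases was higher in Cxcl12DsRed- cTEC. Fmo1, a flavin monooxygenase that oxidises nitrogen and sulfur in drugs, was at 85, 62.4 and 101 CPM in Cxcl12DsRed- cTEC and at 208, 178 and 211 CPM in Cxcl12DsRed+ cTEC. The subsets did not overlap, and the log2 fold change of −1.27 ± 0.23 missed the threshold at an adjusted p of 0.0709 in the quasi-likelihood test. Fmo2, 7707 bases away, was at 20.3, 13.1 and 15.7 CPM against 16.7, 13.8 and 89.8 CPM, and its log2 fold change of −1.29 came to 0.06 without the Cxcl12DsRed+ library of experiment C. Fmo5 overlapped between subsets, with a log2 fold change of −0.13 ± 0.42. Ces1d, a carboxylesterase of lung, liver and fat that cleaves ester drugs and triglycerides, was at 579, 839 and 732 CPM in Cxcl12DsRed- cTEC and at 144, 100 and 77.3 CPM in Cxcl12DsRed+ cTEC. All 3 Cxcl12DsRed- libraries lay above all Cxcl12DsRed+ libraries, and experiment A was the lowest of the first and the highest of the second. Its log2 fold change was 2.74 ± 0.29, the adjusted p was 0.0332 in the quasi-likelihood test and 0.0614 with the experiment as a block. Ces1f, a carboxylesterase gene 58398 bases from Ces1d on chromosome 8, was near the detection limit at 0.0462, 0.122 and 0.492 CPM against 0.0189, 0.438 and 1.73 CPM, with a log2 fold change of −1.71 ± 1.59. That value was −0.08 without the Cxcl12DsRed+ library of experiment C and −3.09 without the Cxcl12DsRed- library of experiment C. Ephx1, the microsomal form that opens the epoxides made by P450 enzymes, was at 345, 360.1 and 446 CPM against 351, 318 and 419.7 CPM, which overlap. Ephx2, the soluble form that acts on epoxides of fatty acids, was at 17.8, 8.15 and 19.8 CPM against 32.5, 64.5 and 42.8 CPM, which do not overlap, with a log2 fold change of −1.61 ± 0.44 and an adjusted p of 0.18 in the quasi-likelihood test.

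Of the 9 cytosolic glutathione transferases, 2 were higher in Cxcl12DsRed- cTEC, 0 were lower, and 8 had a log2 fold change above 0. Gsto1, an omega-class enzyme with thioltransferase activity, was at 608, 383 and 335 CPM in Cxcl12DsRed- cTEC and at 74.7, 79.8 and 47.6 CPM in Cxcl12DsRed+ cTEC. The lowest of the first lay above the highest of the second, and experiment A gave the highest Cxcl12DsRed- value. The log2 fold change was 2.71 ± 0.32, with an adjusted p of 0.0374 in the quasi-likelihood test. Gsta4, an alpha-class enzyme that removes reactive lipid aldehydes, was at 192, 195 and 149 CPM against 55.6, 68.3 and 68.7 CPM. It had the smallest SE of the called genes, with no overlap, a log2 fold change of 1.48 ± 0.20 and an adjusted p of 0.0418 in the quasi-likelihood test, which was 0.101 once libraries were paired by experiment. Gsta3, of the same class, was at 21.1, 44.8 and 44.8 CPM against 8.28, 4.76 and 4.9 CPM and did not pass, with a log2 fold change of 2.63 ± 0.47 and an adjusted p of 0.0695 in that test. The mu-class gene Gstm1 had the highest level per kb of the family in Cxcl12DsRed- cTEC. It stood at 415, 434 and 963 CPM against 149, 180.1 and 499 CPM, higher in Cxcl12DsRed- cTEC within each experiment yet overlapping between experiments, since experiment C was highest in both subsets. The log2 fold change of Gstm1 was 1.13 ± 0.55, with an adjusted p of 0.517 in the quasi-likelihood test. The other 5 genes (Gstm2, Gstm5, Gstp1, Gstt1 and Gstt3) overlapped between subsets, with log2 fold changes from −0.05 for Gstp1 to 0.54 for Gstt1.

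The conjugating enzymes outside this family gave no call. The microsomal transferases Mgst1, Mgst2 and Mgst3 overlapped between subsets. Mgst3, which had the highest level per kb of these, was at 127, 46 and 50.5 CPM against 69, 85.5 and 96.8 CPM, and its log2 fold change of −0.17 came to −0.82 without the Cxcl12DsRed- library of experiment A. Mgst2 was low in all libraries, at 0.785, 0.213 and 0.541 CPM against 0.491, 1.33 and 1.62 CPM. Sult1a1, which sulfates phenols, was at 5.33, 0.456 and 17.5 CPM in Cxcl12DsRed- cTEC and 7.37, 17.6 and 110.0 CPM in Cxcl12DsRed+ cTEC. Its highest value was again in the Cxcl12DsRed+ library of experiment C, and the log2 fold change of −2.53 ± 1.39 was −0.71 without that library. Sult1c2 was at 2.79, 18.7 and 0.0246 CPM against 0, 2.84 and 0.129 CPM, so experiment B was the highest of both subsets. The glucuronyl transferase gene Ugt1a7c, whose exons are largely shared with other Ugt1a genes, and the sulfotransferase gene Sult1d1 stayed at or below 3 CPM in all libraries.

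Of the 8 tested reductases and dehydrogenases, 1 was higher and 1 was lower in Cxcl12DsRed- cTEC. Aldh3a1, an aldehyde dehydrogenase of cornea and airway that AHR ligands induce, was at 171, 132 and 115 CPM in Cxcl12DsRed- cTEC and at 5.14, 2.19 and 1.08 CPM in Cxcl12DsRed+ cTEC. The subsets lay far apart, and experiment A was the highest of each. The log2 fold change was 5.63 ± 0.64, with an adjusted p of 0.0357 in the quasi-likelihood test. Akr1c14, a hydroxysteroid dehydrogenase of the aldo-keto reductase family, was at 0.115, 0.122 and 0.0492 CPM in Cxcl12DsRed- cTEC and at 10.3, 10.8 and 89 CPM in Cxcl12DsRed+ cTEC. It stayed at or below 0.122 CPM in the first subset and was highest in the Cxcl12DsRed+ library of experiment C. Its log2 fold change was −8.55 ± 1.28, the adjusted p was 0.0495 in the quasi-likelihood test and 0.107 with the experiment as a block, and without that library the log2 fold change was −6.80 and the call was lost. Nqo1, a quinone reductase under the control of AHR and NRF2, separated downwards without passing, at a log2 fold change of −1.59 ± 0.28 and an adjusted p of 0.0678 in that test. Adh1, which oxidises alcohols and retinol, and Akr1b8, an aldose reductase relative, separated upwards without passing, at log2 fold changes of 1.85 and 1.16. Cbr2, a carbonyl reductase abundant in lung, had the highest level per kb of all 50 genes in both subsets. It was at 1289, 1271 and 1576 CPM in Cxcl12DsRed- cTEC and 1379.5, 1988 and 1964 CPM in Cxcl12DsRed+ cTEC, which overlap, with a log2 fold change of −0.37 ± 0.21. The remaining dehydrogenase genes Aldh3b1 and Adh7 overlapped between subsets.

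**Figure D2:**
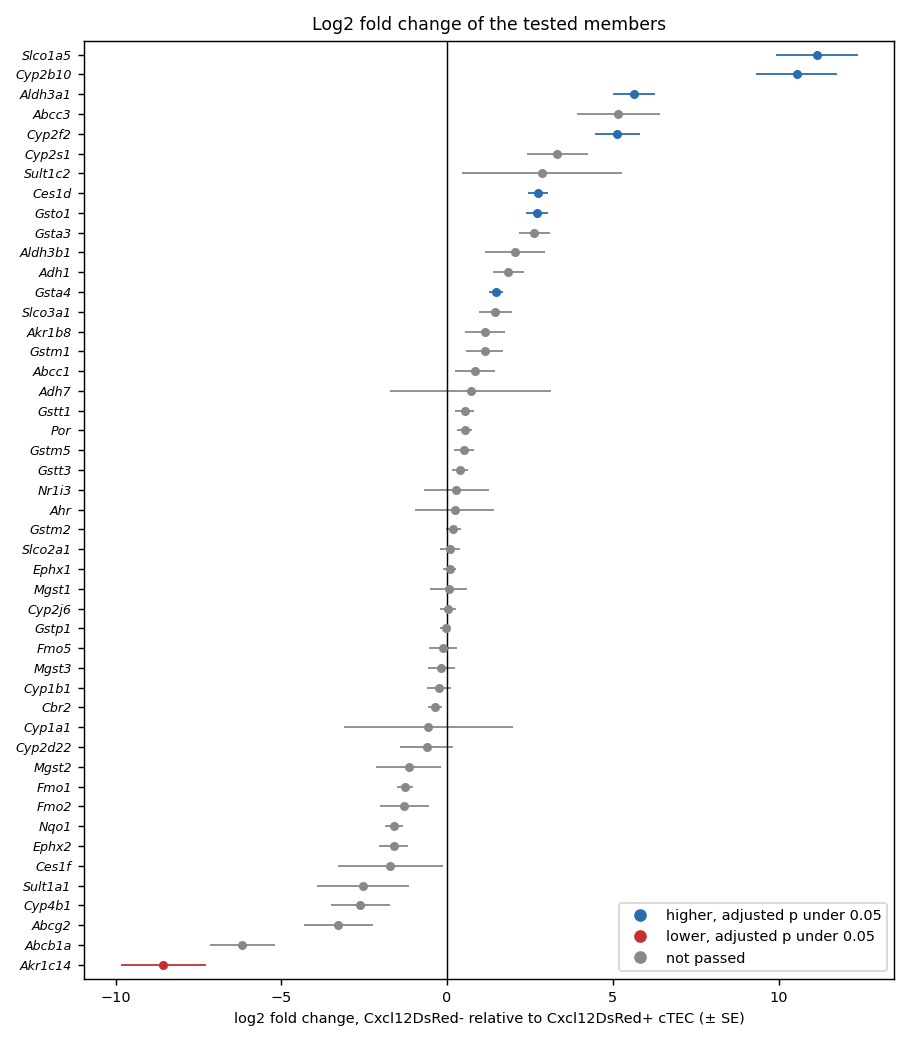
Log2 fold change of the 47 tested genes, Cxcl12DsRed- relative to Cxcl12DsRed+ cTEC, with bars of 1 SE. The SE was worked back from the F statistic of the quasi-likelihood test. Blue points were higher and the red point was lower at an adjusted p under 0.05, and grey points did not pass. The fold changes run from −8.55 for Akr1c14 to 11.15 for Slco1a5, with several grey points as far out as called ones but with wider bars.

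Of the 3 organic anion carriers, Slco1a5 was higher in Cxcl12DsRed- cTEC. This carrier, known for uptake of bile acids and organic anions in gut, brain and kidney, was at 68.7, 133 and 16.4 CPM in Cxcl12DsRed- cTEC and at 0, 0.0417 and 0.0515 CPM in Cxcl12DsRed+ cTEC, the latter from 4 reads in all. Each Cxcl12DsRed- library held it and experiment C held the least. The fitted log2 fold change was 11.15 ± 1.23, with an adjusted p of 0.0357 in the quasi-likelihood test. Slco2a1, the prostaglandin transporter, had the highest level per kb of the carriers and was at 416, 335 and 599 CPM against 564, 384 and 326 CPM. Its subsets overlapped, with a log2 fold change of 0.08 ± 0.30. Slco3a1, a widely expressed carrier of prostaglandins and thyroid hormone, was at 35.6, 25.2 and 15.5 CPM against 6.09, 8.76 and 13.1 CPM, which do not overlap, and did not pass at an adjusted p of 0.293 in the quasi-likelihood test.

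None of the 4 ABC efflux pumps passed the test. Abcb1a, which encodes P-glycoprotein, the drug pump of the vessels of the brain, was at 0.277, 0.243 and 0.517 CPM in Cxcl12DsRed- cTEC and at 10.4, 10.8 and 54.3 CPM in Cxcl12DsRed+ cTEC. Abcg2, the pump named breast cancer resistance protein, was at 32.2, 6.75 and 14.7 CPM against 40.2, 62.2 and 422 CPM. Both separated downwards and both were highest in the Cxcl12DsRed+ library of experiment C. Their log2 fold changes were −6.17 ± 0.98 for Abcb1a and −3.29 ± 1.04 for Abcg2, and −4.96 and −1.56 without that library. The adjusted p of Abcb1a was 0.0568 and that of Abcg2 0.257 in the quasi-likelihood test. Abcc3, a pump for organic anion conjugates on the basolateral side of epithelia, was at 30.6, 42.7 and 6.96 CPM in Cxcl12DsRed- cTEC and 0.907, 1.25 and 0.0515 CPM in Cxcl12DsRed+ cTEC. It separated upwards with a log2 fold change of 5.17 ± 1.24 and an adjusted p of 0.126 in that test. Abcc1, the broadly expressed pump for glutathione conjugates, overlapped at 20.2, 73.3 and 53.4 CPM against 33.3, 37.6 and 10.8 CPM.

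The receptors Ahr and Nr1i3 were low and did not differ beyond the spread between libraries. Ahr was at 14.1, 3.56 and 1.89 CPM in Cxcl12DsRed- cTEC and 0.869, 3.05 and 12.8 CPM in Cxcl12DsRed+ cTEC. The order of experiments was opposite in the subsets, and the log2 fold change of 0.23 ± 1.19 was 1.68 without the Cxcl12DsRed+ library of experiment C and −1.06 without the Cxcl12DsRed- library of experiment A. Nr1i3 was at 1.66, 6.15 and 0.984 CPM against 1.53, 2.67 and 3.07 CPM, with a log2 fold change of 0.27 ± 0.98, which turned to −0.87 without the Cxcl12DsRed- library of experiment B and −0.09 with the experiment as a block. Of the transcript sequence of Nr1i3, 63.6% of 50-base stretches also lie in the overlapping gene Tomm40l on the other strand, and because the use of strand in counting is not given in the sources used here, reads from the 2 cannot be told apart.

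**Figure D3:**
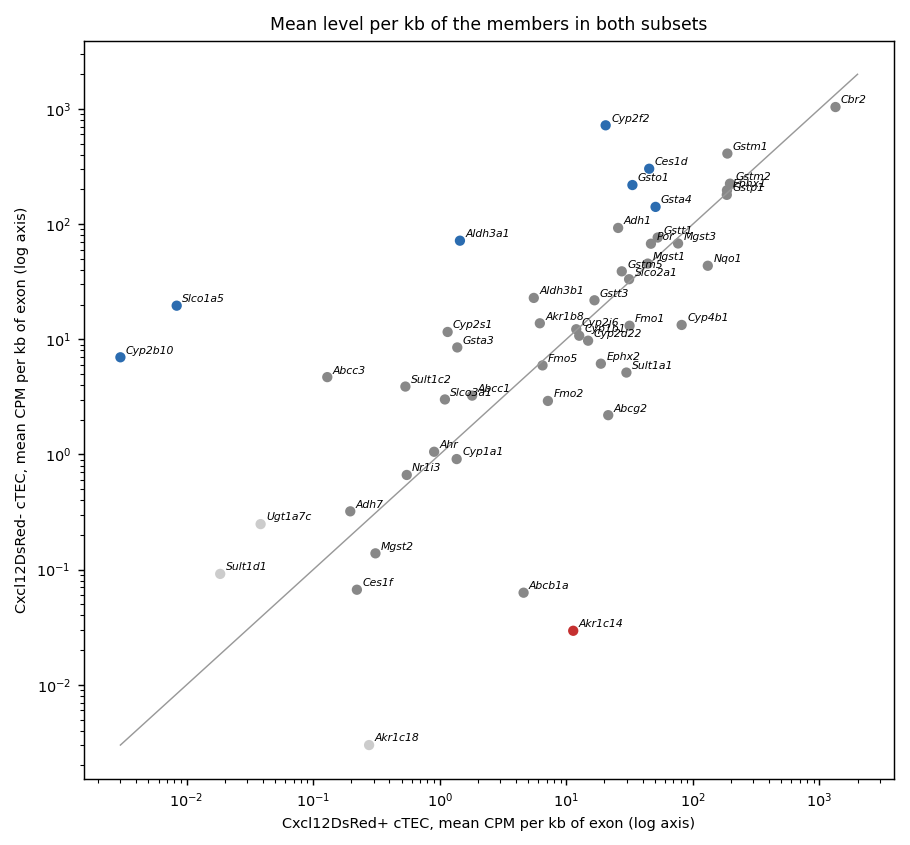
Mean level per kb of exon of each of the 50 genes in Cxcl12DsRed+ (horizontal) and Cxcl12DsRed- cTEC (vertical), both log axes in CPM per kb. The grey line marks equal levels, blue and red points are the called genes, dark grey points did not pass, light grey points were not tested, and Akr1c18, at 0 in Cxcl12DsRed- cTEC, is drawn at 0.003. Cbr2 is highest in both subsets, and Cyp2f2 reaches 721 CPM per kb in Cxcl12DsRed- cTEC from 20.5 in Cxcl12DsRed+ cTEC.

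The levels of the 50 genes also varied between libraries of the same subset. Among Cxcl12DsRed+ libraries, experiment C was the highest for 28 of the 47 tested genes, experiment A for 11 and experiment B for 8. The genes that stood furthest above the next Cxcl12DsRed+ library there were Akr1c14 (8.21-fold), Cyp4b1 (7.48-fold), Abcg2 (6.79-fold), Sult1a1 (6.26-fold), Fmo2 (5.36-fold) and Abcb1a (5.02-fold), named after their values were seen. The endothelial marker sum was also highest in that library, a match fixed by the way these genes were picked. Akr1c14, Cyp4b1, Abcg2 and Abcb1a lay lower in every Cxcl12DsRed- library, as that sum did, whereas Fmo2 and Sult1a1 overlapped between subsets. Of the 18 endothelial markers 16 lay lower in every Cxcl12DsRed- library, where 9.32% of all tested genes did, with 1, Emcn, called lower and none at 0 in a subset. Among Cxcl12DsRed- libraries, experiment A was the highest for 13 of the 47, experiment B for 16 and experiment C for 18. In neither subset were such counts taken over all tested genes, so they are not read as particular to the 47. The sums of airway secretory and tuft cell markers were, like the 7 called genes, higher in every Cxcl12DsRed- than in every Cxcl12DsRed+ library. Among the Cxcl12DsRed- libraries both sums were highest in experiment A and lowest in C, and so were Cyp2f2, Gsto1 and Aldh3a1. Ces1d and Slco1a5 were highest in B, and Cyp2b10 and Gsta4 were about level in A and B. All of the 7 genes but Ces1d were lowest in C. Without the Cxcl12DsRed- library of experiment A, in which these sums were highest, the log2 fold changes of the 7 genes were 1.39 for Gsta4, 2.38 for Gsto1, 2.85 for Ces1d, 4.73 for Cyp2f2, 5.43 for Aldh3a1, 10.36 for Cyp2b10 and 11.14 for Slco1a5. None of the 7 passed in that fit, but 0 genes of the whole table did. The same held without the Cxcl12DsRed+ library of experiment A or either library of experiment B. The Cxcl12DsRed- libraries of experiments B and C still held 15043 and 10642 CPM of airway secretory markers and 1070.3 and 691 CPM of tuft markers. Leaving out experiment A therefore does not remove these markers, and nothing about them is read from the lost calls or the fold changes that stayed. Of the 12 tested airway secretory markers 5 were higher (Wfdc2, Slpi, Reg3g, Spdef and Pigr), where 0.449% of all tested genes were. Of the 18 tuft markers 4 were higher (Chat, Alox5ap, Gfi1b and Trpm5), with Il25 at 0 counts in Cxcl12DsRed+ cTEC. Every Cxcl12DsRed- library lay above every Cxcl12DsRed+ library in 8 of the 12 and 15 of the 18, where 9.73% of all tested genes did so. The 14 enterocyte and hepatocyte markers summed to 367, 150.0 and 22.7 against 7.67, 11.6 and 14.9 CPM, with 1 of 11 tested higher (Apoc3). The part of these cells in the levels of the 50 genes was not tested. The lists for medullary TEC (10 genes), fibroblasts (14), pericytes and smooth muscle (8), thymocytes (12) and macrophages and dendritic cells (14) held no called gene. The medullary markers summed to 10910.0, 10986 and 7110.3 CPM in Cxcl12DsRed- cTEC and 12361, 13379 and 3175 CPM in Cxcl12DsRed+ cTEC. The fibroblast markers summed to 3935, 3751 and 5222 CPM against 1749.7, 1908 and 1313 CPM, higher in every Cxcl12DsRed- library, while the pericyte markers gave 1039, 983 and 755 CPM against 1102, 979.9 and 1551 CPM and overlapped. Thymocyte markers gave 95.5, 118 and 50.6 against 116, 374 and 45.5 CPM, with Ptcra at 0 counts in Cxcl12DsRed- cTEC. Macrophage and dendritic cell markers gave 542, 870.0 and 148 against 41, 103 and 116 CPM, higher in every Cxcl12DsRed- library, with Xcr1 and Siglech at 0 counts there.

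**Figure D4:**
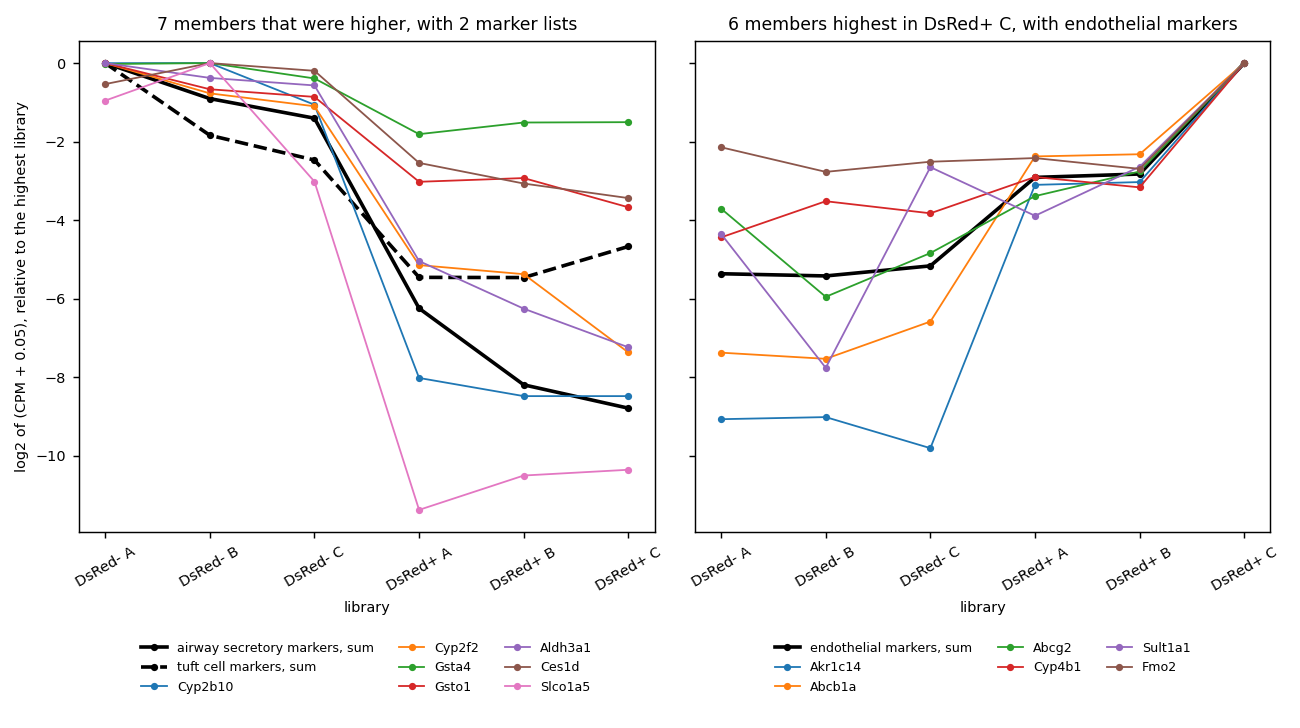
Left, the 7 genes higher in Cxcl12DsRed- cTEC with the summed airway secretory and tuft cell markers, and right, 6 genes highest in the Cxcl12DsRed+ library of experiment C with the summed endothelial markers. Each line is log2 of CPM plus 0.05 relative to its own highest library, over the 6 libraries on the horizontal axis. On the left all lines drop between the Cxcl12DsRed- and the Cxcl12DsRed+ libraries, and on the right all peak in the last library. For the genes, both patterns follow from how they were picked.

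To see how the wider system behaved, 258 further genes of the same families were listed from knowledge of the families, also with earlier results known. Of these, 54 had 0 counts in all libraries and 138 were tested, with 1 higher and 0 lower in the quasi-likelihood test, where 0.449% and 0.173% of all tested genes were, and a median log2 fold change of 0.15. The 1 was Pon3, a paraoxonase that hydrolyses lactones, at 53.6, 69.8 and 34.5 CPM in Cxcl12DsRed- cTEC and 8.35, 7.07 and 10.8 CPM in Cxcl12DsRed+ cTEC. Its libraries did not overlap, its log2 fold change was 2.59 ± 0.37, and its adjusted p was 0.0461 in that test and 0.129 with the experiment as a block, under which Ces2c was the 1 called in its place. In 27 of the 138 every Cxcl12DsRed- library lay above every Cxcl12DsRed+ library and in 15 below, where 9.73% and 9.32% of all tested genes did so. The likelihood ratio test called 17 higher and 2 lower, where it called 3.53% and 2.12% of all tested genes.

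Within the lists without a call, the genes with the smallest p are given. Of 70 other P450 genes 16 were tested, led by Cyp4a12a at 60.5, 31.1 and 28.6 against 0.586, 0 and 0.0258 CPM and Cyp2g1, an olfactory P450, at 55.6, 24.3 and 13.5 against 1.21, 0.0417 and 0.155 CPM. Both lay higher in all Cxcl12DsRed- libraries, with adjusted p of 0.0901 and 0.107 in the quasi-likelihood test. Of 13 other glutathione transferases 11 were tested, led by the alpha-class genes Gsta2 at 9.88, 53.2 and 3.22 against 0.359, 0.209 and 0.0258 CPM and Gsta1 at 0.97, 13.4 and 1.72 against 0, 0.25 and 0.0258 CPM. The 15 genes of glutathione synthesis and recycling, led by Lap3 and Oplah, had log2 fold changes from −1.27 to 2.25. Of 38 other transferases 15 were tested, led by Ugt1a1, which conjugates bilirubin, at 5.93, 10.1 and 2.26 CPM in Cxcl12DsRed- cTEC and 0 counts in Cxcl12DsRed+ cTEC, and Sult1b1. Ugt1a1 was at least 93.2-fold higher against a floor of 3 counts per library, and its adjusted p was 0.0782 in that test. Of 40 other reductases, dehydrogenases and oxidases 31 were tested, led by Aldh3b2 at 38.2, 42.9 and 29.2 against 5.99, 7.57 and 1.96 CPM and Hsd11b1, which regenerates active glucocorticoid, at 67.6, 97.6 and 67.3 against 2.87, 9.03 and 18.2 CPM.

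Among 25 other organic ion transporters 11 were tested, led by a pair of OATP genes that went opposite ways. Slco2b1 was at 9.72, 34.8 and 24.7 CPM in Cxcl12DsRed- cTEC and 142, 146 and 257 CPM in Cxcl12DsRed+ cTEC, with a log2 fold change of −2.98 and an adjusted p of 0.0674 in the quasi-likelihood test. Slco4a1 was at 51.6, 49.2 and 18.4 CPM against 0.132, 2.46 and 0.0515 CPM, with a log2 fold change of 5.48 and an adjusted p of 0.165 in the same test. Neither passed, although the libraries of both genes were separated. Of 10 other ABC pumps 6 were tested, led by Abcc5 and Abcc9, and of 20 other regulators 16, led by Arnt2 and Nr2f1, with smallest adjusted p of 0.211 and 0.423 in that test.

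**Figure D5:**
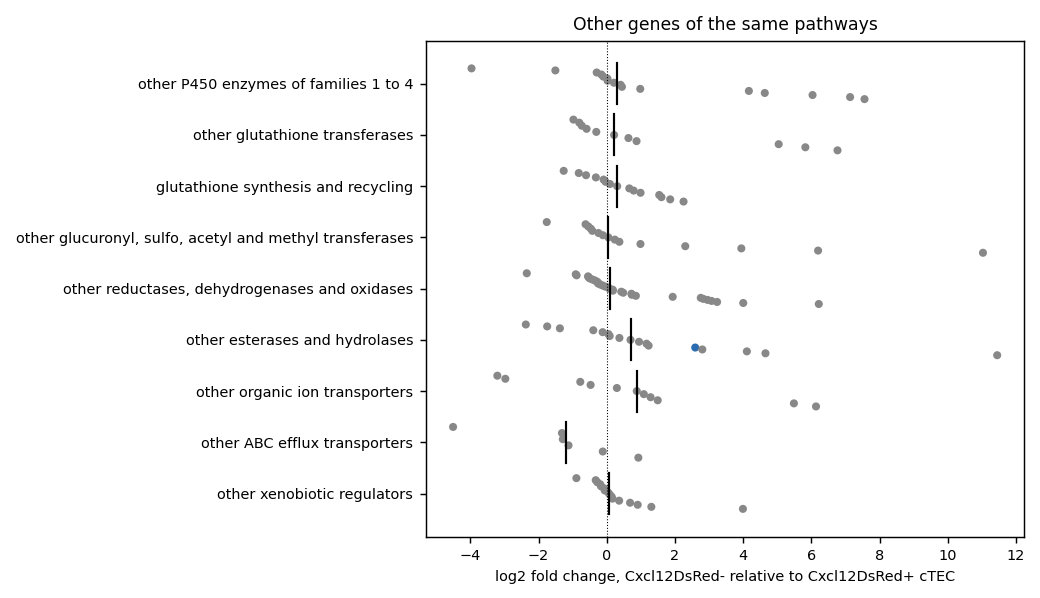
Log2 fold change (Cxcl12DsRed- relative to Cxcl12DsRed+ cTEC) of the 138 tested genes of 9 further lists of the same pathways, 1 point a gene and a black bar at the median of each list. The blue point is Pon3, the only gene of these lists past an adjusted p of 0.05, and grey points did not pass. Most points lie near 0. The fold changes run from −4.51 in the list of other ABC pumps to 11.45 in that of esterases. Lists of P450 enzymes, transferases, reductases and organic ion transporters also hold high ones.

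Lists of genes known as targets of AHR and of NRF2, the factor that answers oxidative stress, held 1 call. Of 9 genes of the AHR battery, 4 of them among the 50 (Cyp1a1, Cyp1b1, Nqo1 and Aldh3a1), 7 were tested and Cyp1a2 had 0 counts in all libraries. In the quasi-likelihood test 1 was higher, Aldh3a1, and 0 were lower, where 0.449% and 0.173% of all tested genes were. Their log2 fold changes ran from −1.59 to 5.82, with a median of −0.19. Every Cxcl12DsRed- library lay above every Cxcl12DsRed+ library in 3 of the 7 and below in 1, where 9.73% and 9.32% of all tested genes did so. Of 16 NRF2 targets, which include Nqo1, 0 passed the quasi-likelihood test of edgeR, 6 had an unadjusted p under 0.05, as 1840 of all 15576 tested genes had, and the median log2 fold change was −0.14. The likelihood ratio test called 0 of the 16 higher and 1 lower, against 3.53% and 2.12% of all tested genes.

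Several of the 50 lie close together on the genome. Akr1c14 and Akr1c18 lie 41927 bases apart on chromosome 13, Gstt3 and Gstt1 2399 bases apart on chromosome 10, and Adh7 and Adh1 27609 bases apart on chromosome 3, with Adh7 scarce and Adh1 present in all libraries. Reads of related genes can be split or lost in counting, so the share of 50-base stretches found in other genes was taken from GENCODE transcripts of GRCm38. It was 0% for Gsta4, Gsto1 and Aldh3a1, 1.08% for Ces1d, 3.56% for Slco1a5, 5.8% for Akr1c14, 8.7% for Cyp2b10 and 9% for Cyp2f2. It was higher for some genes that were not called, at 22.5% for Abcb1a and 33.7% for Gstp1. Abcb1b, a relative of Abcb1a, was at 4.55, 1.64 and 5.19 CPM in Cxcl12DsRed- cTEC and 3.33, 6.19 and 18.4 CPM in Cxcl12DsRed+ cTEC. Genes on the other strand overlap some called genes. Gm15883 overlaps Cyp2f2 and had 45 reads in Cxcl12DsRed- cTEC. Iapp, which encodes the pancreatic hormone amylin, overlaps Slco1a5 and was at 5.89, 209 and 1.06 CPM in Cxcl12DsRed- cTEC and 0.0378, 0.0626 and 0.0515 CPM in Cxcl12DsRed+ cTEC. Both were highest in experiment B, while in experiments A and C Slco1a5 stood more than 10-fold above Iapp. Without the strand of the reads, those from the shared stretch cannot be assigned to 1 of them.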

How the data were processed

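RNA of 6 libraries, 3 per subset, was read from a table of whole-number counts per gene. The authors prepared SMARTer Ultra Low Input libraries from poly(A) RNA, used Trimmomatic 0.36 for trimming, STAR 2.7.3a for alignment to mm10 and HTSeq for counting, and deposited these counts unadjusted. Neither the annotation release nor the strand setting of the counting is given in the sources used here. The 92 spike-in entries, the HTSeq summaries and the DsRed entry entered neither library sizes nor tests. Reads in no gene came to 5.87% to 9.35% of the counts in genes, ambiguous reads to 1.21% to 1.38% and reads aligned to several places to 5.61% to 9.07%. GENCODE M21 for GRCm38 gave a symbol to 37693 of 39179 gene IDs. Depth was 34574900 to 51042679 counts in genes, and intervals and floors hold for counting error alone, since PCR copies of a molecule are not independent.

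After filterByExpr with a minimum count of 10 and TMM scaling, the quasi-likelihood test of edgeR 4.0.16 was run in R 4.3.3 (prior count 0.125), and p-values were adjusted by Benjamini-Hochberg with a threshold of 0.05. The SE of a log2 fold change is its absolute value divided by the square root of the F statistic of that test. Where a subset held almost no reads, the fold change and this SE depend on the prior count. Alternatives were the likelihood ratio test, the experiment as a replicate block, RLE size factors, library totals, voom in limma 3.58.1, DESeq2 1.42.0, a filter at a mean of 1 CPM or none, and leaving out each library. The code was tested on simulated data. The labels name the experiment in each sample, so libraries of the same experiment were taken as pairs. Across genes, the correlation of their deviations from the subset means was 0.0296 for A, 0.0892 for B and 0.081 for C, against −0.111 to 0.00632 between experiments.

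The 50 genes, the further lists and the motifs were chosen with earlier results of these data known. Values in every library were given for each called gene, for the 2 genes of each role with the largest fold change, for the highest per kilobase of each role, and for all tested transporters and receptors. In each further list the called genes were named, or the 2 with the smallest p. Sequences were taken from RefSeq for GRCm38.p6, and plots were drawn with matplotlib 3.10.9.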

Additional observations from a re-analysis of the deposited data

How the results depend on the processing

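Of the 50 genes, 7 were higher and 1 was lower in Cxcl12DsRed- cTEC, and of the further pathway genes 1 was higher and 0 were lower. RLE size factors, library totals and a mean of at least 1 CPM left these counts as they were. The likelihood ratio test gave 11 and 7, and 17 and 2 of the further genes, and DESeq2 gave 11 and 5, and 21 and 3. DESeq2 gave no adjusted p for Akr1c14, the gene called lower, or for Cyp4b1, both of which the likelihood ratio test called lower. With limma voom the counts were 1 (Ces1d) and 0, and 0 and 0, with 4 genes called in the whole table. Without a filter 2 of the 50 genes were lower, Abcb1a having joined Akr1c14, and 1 of the further genes was lower. With the experiment as a replicate block, which pairs the libraries, 4 genes were higher and 0 lower, and 1 and 0 of the further genes. Leaving out 1 library at a time gave 0 to 7 higher and 0 lower in each fit, and 0 to 3 further genes higher and 0 lower in each fit. The whole table kept 0 calls without experiment A or B of either subset, with 1460 to 1850 genes at an unadjusted p under 0.05, 1 call without the Cxcl12DsRed+ library of experiment C, and 139 without the Cxcl12DsRed- library of experiment C. Moves were measured against the SD within subsets of log2 of CPM plus 0.5, which is wide for genes that vary between libraries. Cyp2d22 went from −0.61 to 0.54 without the Cxcl12DsRed+ library of experiment C and still lay within it. The alternatives use the same counts and are no independent check. Of 656 log2 fold changes of the 47 tested genes under the alternatives, 637 lay within 1 SD of the reported value, 19 moved by more, and none of a called gene changed sign, while 14 genes that were not called changed sign without at least 1 library. The causes were not tested. Depth limits Cyp2b10 and Slco1a5 in Cxcl12DsRed+ cTEC, where 1 and 4 reads were counted.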
